A study of Homo sapiens with 9 samples.

Results

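The passage from 2 h to 6 h under inhibition of the RAF, MEK and ERK kinase pathway was followed in A375P cells, a human melanoma line (established in culture) with a mutant BRAF kinase. The cells were given the MEK inhibitor PD184352 at 1 µM, the RAF inhibitor PLX4720 at 0.4 µM, or the solvent DMSO. The comparison used 4 of the 9 deposited columns of values, PD184352 and PLX4720 at 2 h and at 6 h, chosen by their labels and paired by compound. DMSO at 2 h and 6 h served to show change with time in culture. All groups are the same line in the same serum-containing medium. The design text mentions triplicates, but each group has 1 column, and no source used here says whether that column is 1 array or a mean. The values are intensities of a gene-level exon array, on which a row stands for a transcript cluster. A level below is log2(intensity + 1), and a change is a difference on that scale, 6 h minus 2 h.

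In cells with mutant BRAF, the kinase signals through MEK to ERK without a growth factor. ERK induces short-lived transcripts of transcription factors, among them EGR, FOS-related and ETS genes, together with genes of its own inhibitors, the sprouty proteins and the dual-specificity phosphatases, and cyclin D1, which drives entry into S phase. When the pathway is blocked, transcripts that depend on it directly are lost at the pace of their own decay, and genes that depend on those factors follow later.

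Of 35446 rows, 19380 carried 1 gene symbol, and these stood for 17047 genes. The 4262 genes with the lowest mean level were left out, which left 12785. Of 8 melanocyte markers 5 were among the genes tested, with mean levels of 10.87 for PMEL, 10.19 for SOX10, 9.81 for MITF, 8.22 for S100B and 6.68 for MLANA. TYRP1 was among the dim genes left out, and TYR and DCT had no row with 1 symbol. Of the markers of other cell types, 2 of 4 immune genes (PTPRC, CD3E) and 2 of the 3 epithelial genes with a row (EPCAM, CDH1) were among the dim genes left out, as were 1 of 5 fibroblast genes (DCN) and 1 of 3 endothelial genes (PECAM1). The others were among the genes tested, and their mean levels were 10.72 for CD68, which encodes a lysosomal protein, and 6.96 for CD14 (immune), 7.71 for KRT14 (epithelial) and 7.73 for VWF and 6.46 for CDH5 (endothelial). The fibroblast genes COL1A1, PDGFRB, COL1A2 and LUM had mean levels of 7.48, 7.003, 6.35 and 6.21. Levels of different rows are not comparable, so no order is read from them. The median intensity lay between 98.96 and 102.4 in all 9 columns.

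From 2 h to 6 h with inhibitor, 938 of 12785 genes (7.34%) were called by limma at an adjusted p below 0.05, 650 higher (5.08%) and 288 lower (2.25%). Both compounds moved the same way in 646 of the 650 and 283 of the 288. A call is made on the mean of both compounds, which makes opposite signs rare, so these counts are no separate test of agreement. Genes that ERK is known to induce led the falls, and the rises were more numerous and were often seen in DMSO cells too. A fall or rise of at least 2-fold was reached by 7 and 9 genes. The fit had 1 residual degree of freedom, so limma gave every gene the same standard error, 0.105, and a call here means a change of at least 0.30 in size. That spread comes from the 2 compounds and says nothing of repeated cultures. A fit with the 24 h inhibitor columns added, in which genes differ in their spread, called 809 genes, of which 777 were among the 938. Its adjusted p is given below as the adjusted p of the 6-column fit.

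The PD184352 2 h column weighs heavily on these counts. Without it 93 genes were called, 44 higher and 49 lower, and without the PD184352 6 h column 485, 230 of them higher and 255 lower. Without the PLX4720 2 h column 110 falls were called. The median change over all tested genes was 0.06 with PD184352, −0.02 with PLX4720 and 0.03 with DMSO. A rise of at least 0.5 was read for 367 genes with PD184352, for 101 with PLX4720 and for 112 with DMSO, and a fall of that size for 91, 131 and 30 genes. The part of that column in the excess of rises was not tested beyond these values.

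**Figure D1:**
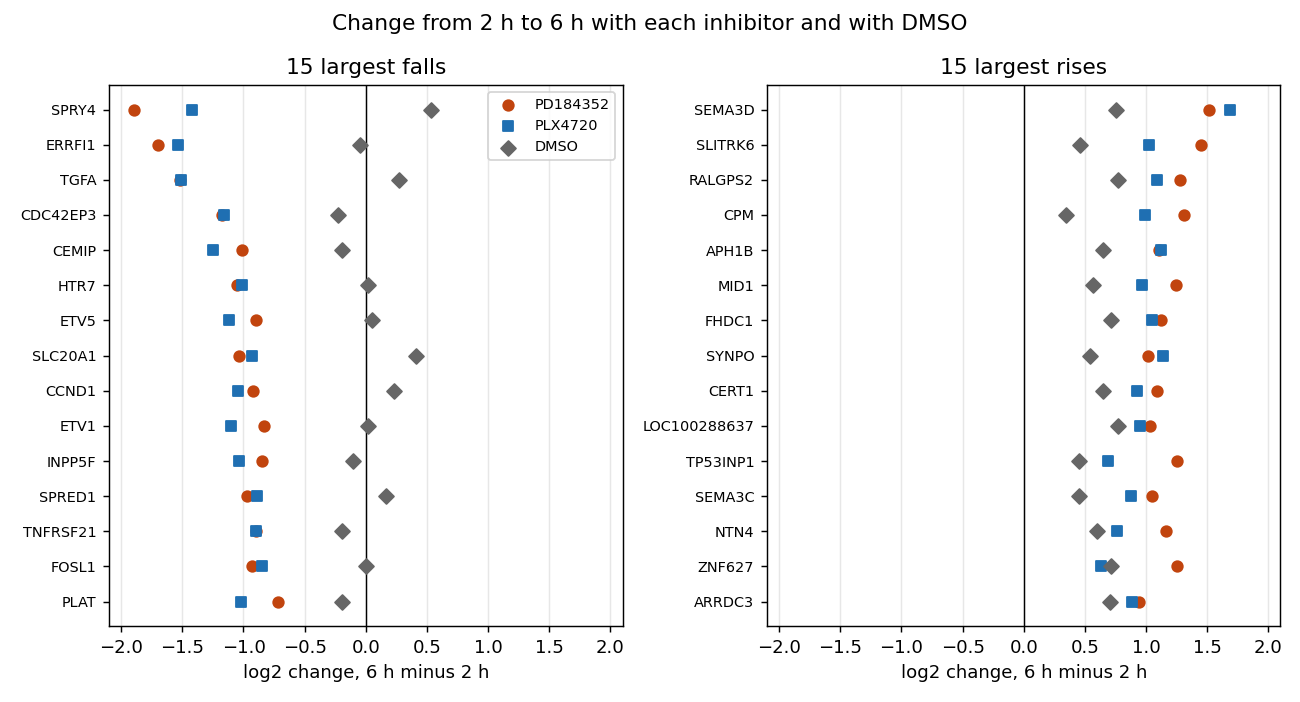
Log2 change from 2 h to 6 h (horizontal axis) for the 15 genes with the largest falls (left) and the 15 with the largest rises (right), with PD184352 (circles), PLX4720 (squares) and DMSO (diamonds), 1 pair of columns per point. Among the falls DMSO lies between −0.23 and 0.53, and among the rises DMSO lies above 0 for every gene, between 0.34 and 0.77.

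Of 10 feedback inhibitors of ERK signalling 6 fell between 2 h and 6 h, beside 2.25% of all genes tested, and 0 rose, and the median change was −0.54, beside 0.01 over all tested genes and 0.12 for the same list in DMSO. SPRY4, a sprouty protein that blocks signalling above RAF, stood at 8.40 at 2 h and 6.51 at 6 h with PD184352, at 8.38 and 6.96 with PLX4720, and at 10.33 and 10.87 with DMSO. All inhibitor levels were thus below both DMSO levels, and the 6 h levels were below the 2 h levels for both compounds. Its change of −1.66 (SE 0.105, a 3.16-fold fall, adjusted p of the 6-column fit 1.92e-05) was the largest fall of all, and it was −1.35 without the PD184352 2 h column. SPRED1, a sprouty-related inhibitor of RAS and RAF signalling, went from 10.26 to 9.28 with PD184352 and from 10.28 to 9.39 with PLX4720, while DMSO read 10.27 and 10.44. At 2 h SPRED1 was therefore level with DMSO under both compounds, and its fall of 0.93 came after that time. Without the PD184352 2 h column it stood at −0.78 with an adjusted p of 0.0529.

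SPRED2, a relative of SPRED1, fell by 0.83, from 8.88 to 8.02 with PD184352 and from 9.04 to 8.23 with PLX4720. DUSP5, a phosphatase that acts on ERK in the nucleus, fell by 0.50, by 0.48 with PD184352 and by 0.51 with PLX4720. The compounds were apart for SPRY2 and for DUSP6, the phosphatase that acts on ERK in the cytoplasm. SPRY2 read 7.73 and 6.67 with PD184352 and 7.83 and 7.50 with PLX4720, against 10.22 and 10.34 in DMSO. DUSP6 read 7.60 and 6.67 with PD184352, and 7.72 and 7.49 with PLX4720, against 10.54 and 10.72 in DMSO. Both genes were thus already far below DMSO at 2 h, and most of the later fall was read with PD184352. Their mean changes, −0.69 and −0.58, were called with the shared standard error but not in the 6-column fit, where the adjusted p was 0.0941 for SPRY2 and 0.219 for DUSP6. Without the PD184352 2 h column, in a fit that adds the 24 h columns, they stood at −0.13 and 0.02. That fit takes the offset between the compounds from 6 h and 24 h. In the PLX4720 pair of columns itself SPRY2 fell by 0.33 and DUSP6 by 0.23. The other members were not called, SPRY1 at −0.20, DUSP7 at −0.18, SPRED3 at −0.09 and DUSP4 at −0.09. DUSP4, another nuclear phosphatase, read 8.72 and 8.66 with PD184352 and 8.78 and 8.67 with PLX4720, below the DMSO levels of 9.35 and 9.68 at both times.

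Whether the change with inhibitor differed from the change in DMSO cells was tested as an interaction. limma called 103 of 12785 genes (0.806%), 74 lower (0.579%) and 29 higher (0.227%), again with 1 standard error for all genes, 0.181, and with a single DMSO column at each time. With all 9 columns in the fit the count was 31, of which 28 were lower, after quantile normalization it was 17, and without the PD184352 2 h column, in a fit to the other 8, it was 5. The PLX4720 2 h column had the same kind of weight, with 8 genes called without it, against 42 without PLX4720 6 h. Among the 31 genes named here that were called in this test, 10 were called under all of the other settings tried before columns were left out. These were SPRY4, ERRFI1, TGFA, HTR7, ETV5, SLC20A1, CCND1, SPRED1, EPHA4 and FKBP5. SPRY4, ERRFI1, TGFA, SLC20A1 and EPHA4 were also called whichever of the 4 inhibitor columns was left out. Of the 288 called falls, 63 were also lower in this test (21.9%), and of the 650 called rises 23 were also higher (3.54%). Both tests use the same inhibitor columns, so this overlap is no separate support for the calls.

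**Figure D2:**
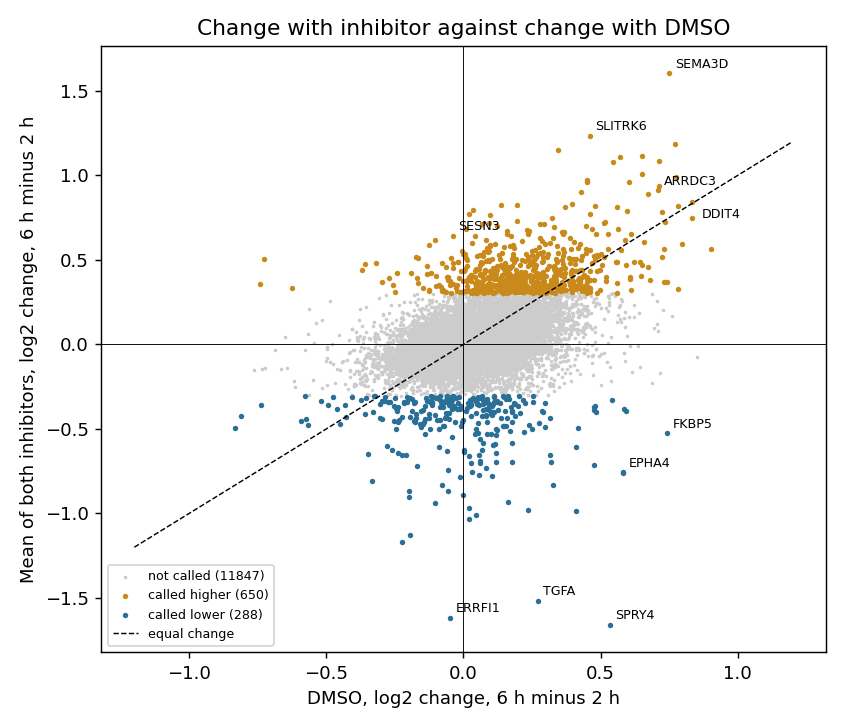
Mean log2 change from 2 h to 6 h over both inhibitors (vertical) against the log2 change in DMSO (horizontal), 1 point per gene for 12785 genes, with 650 called rises in ochre, 288 called falls in blue and equal change as a dashed line. Most called rises lie to the right of 0 on the DMSO axis, while the called falls spread to both sides.

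Genes of EGF receptor signalling were among the largest falls. TGFA, a ligand of the EGF receptor, read 8.88 and 7.36 with PD184352, 8.93 and 7.41 with PLX4720, and 9.33 and 9.60 with DMSO. Its change of −1.52 (SE 0.105, a 2.86-fold fall) was nearly equal with both compounds, and it differed from the DMSO change by −1.79 (SE 0.181, limma adjusted p 0.000229 with all 9 columns in the fit and 0.00856 after quantile normalization). ERRFI1, an ERK-induced inhibitor of the EGF receptor, read 9.67 and 7.97 with PD184352, 9.59 and 8.05 with PLX4720, and 10.54 and 10.49 with DMSO. It fell by 1.62 with inhibitor, a 3.07-fold fall, while the DMSO pair differed by −0.05. Without the PD184352 2 h column these falls were −1.56 and −1.48. The ephrin receptor EPHA4 went the opposite way in the treated and the solvent cells: 7.36 to 6.62 with PD184352 and 7.50 to 6.73 with PLX4720, but 7.69 to 8.27 with DMSO. Its difference from DMSO, −1.34 (SE 0.181), was called under all 10 other settings that gave it a value and whichever inhibitor column was left out. ERBB3, a receptor of the same family as the EGF receptor, rose by 0.57, from 9.59 to 10.28 with PD184352 and from 9.64 to 10.09 with PLX4720, with DMSO at 9.82 and 10.00. Of 13 tested ligands and receptors 3 fell, beside 2.25% of all genes, and 2 rose, beside 5.08%.

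Among transcription factors, 6 of 11 tested ETS genes fell, beside 2.25% of all genes, 0 rose and 5 were not called, with a median of −0.33 (DMSO 0.02). ETV5, a PEA3-type factor, read 8.97 and 8.07 with PD184352, 9.14 and 8.02 with PLX4720, and 9.55 and 9.60 with DMSO. ETV1, of the same type, read 8.30 and 7.47 with PD184352, 8.48 and 7.37 with PLX4720, and 8.68 and 8.70 with DMSO. Against DMSO at 2 h, ETV5 stood at −0.58 with PD184352 and −0.41 with PLX4720, and ETV1 at −0.37 and −0.20. From 2 h to 6 h they fell by 1.01 and 0.97. The third PEA3 gene, ETV4, fell by 0.46, by 0.22 with PD184352 and 0.70 with PLX4720. ELK3, an ETS factor that works with serum response factor, fell by 0.54, ETS2 by 0.37 and ETV6, a repressor, by 0.33.

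Among 22 tested immediate-early genes 5 fell, beside 2.25% of all genes. The 1 rise is near the share of 5.08% over all genes, and 16 were not called. FOSL1, an AP-1 subunit that ERK stabilizes, read 9.56 and 8.64 with PD184352, 9.58 and 8.72 with PLX4720, and 10.31 at both times with DMSO. It fell by 0.89, and the falls of MAFF (0.51), KLF4 (0.50), ATF3 (0.38) and EGR1 (0.36) were smaller. ATF3, a stress-induced factor, was also lower by 0.46 in DMSO at 6 h. FOSL2, another AP-1 subunit, rose by 0.60, from 8.94 to 9.69 with PD184352 and from 9.17 to 9.63 with PLX4720, while DMSO read 9.05 and 9.08. The 2 FOS-related subunits therefore moved in opposite directions with both compounds.

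**Figure D3:**
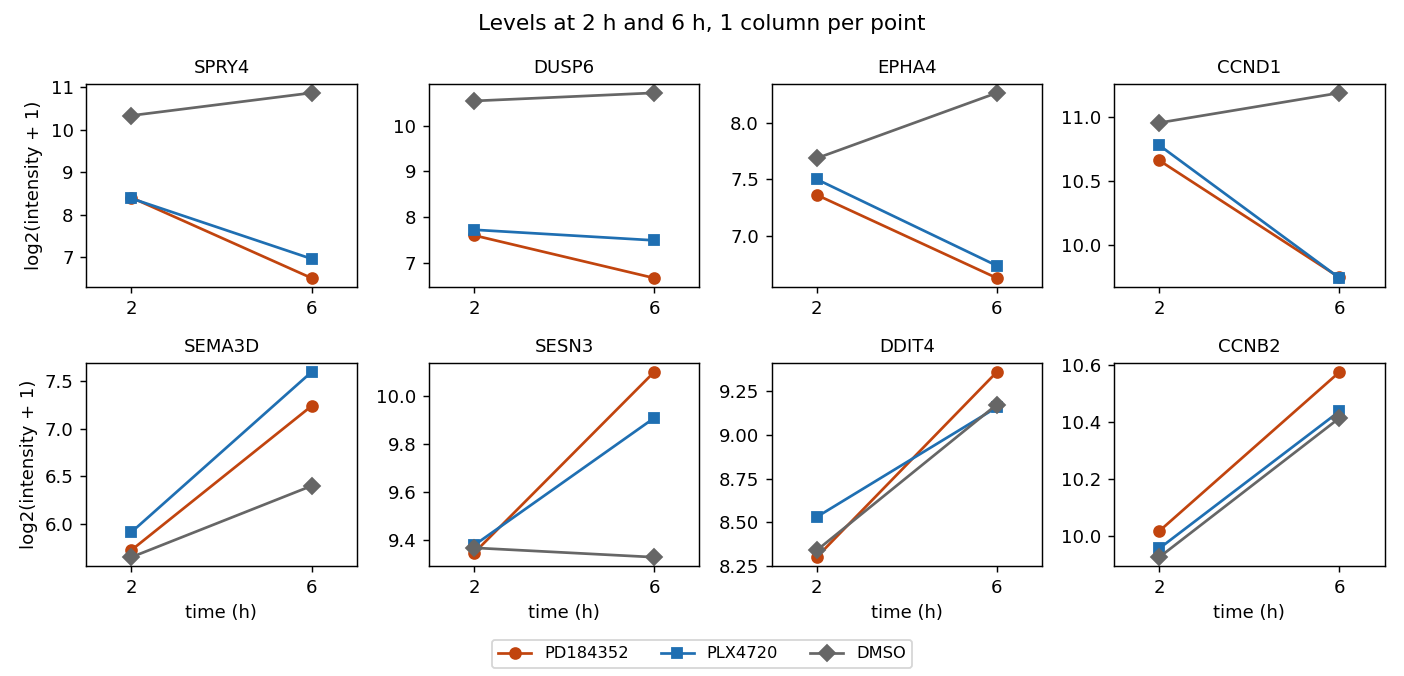
Level, log2(intensity + 1), at 2 h and 6 h with PD184352 (circles), PLX4720 (squares) and DMSO (diamonds) for 8 genes, 1 column per point, with a vertical scale of its own for each gene. SPRY4, EPHA4 and CCND1 go down with both inhibitors and up with DMSO, SESN3 goes up with the inhibitors only, and DDIT4 and CCNB2 go up in all 3 treatments.

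Cyclin D1 was the main G1 gene to move. CCND1 read 10.66 and 9.74 with PD184352, 10.78 and 9.74 with PLX4720, and 10.96 and 11.19 with DMSO. Against DMSO at 2 h it stood at −0.30 with PD184352 and −0.18 with PLX4720. It had fallen by 0.98 at 6 h (adjusted p of the 6-column fit 0.000222). Its partner kinase CDK6 fell by 0.44, so 2 of 8 tested G1 genes fell, beside 2.25% of all genes. The other 6 were not called, among them CDC25A at −0.18 and CCNE1 at −0.14. Among 7 CDK inhibitors and pocket proteins limma called 0, with 1 at an unadjusted p below 0.05, CDKN1A at 0.22.

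The rest of the 15 largest falls belonged to no list. CDC42EP3, an effector of the CDC42 GTPase, read 10.79 and 9.61 with PD184352, 10.92 and 9.76 with PLX4720, and 11.40 and 11.18 with DMSO. CEMIP, which takes part in hyaluronan breakdown, fell by 1.13, by 1.01 and 1.25 with the single compounds. HTR7, a serotonin receptor, read 8.30 and 7.25 with PD184352, 8.28 and 7.27 with PLX4720, and 8.38 and 8.40 with DMSO, so that it was near DMSO at 2 h and below it at 6 h. SLC20A1, a phosphate transporter, fell by 0.99 with inhibitor while it was higher by 0.41 in DMSO at 6 h. INPP5F, an inositol phosphatase, fell by 0.94, the death receptor gene TNFRSF21 by 0.90 and tissue plasminogen activator, PLAT, by 0.87. PLAT stood at −1.02 with PLX4720 and −0.72 with PD184352, and its difference from DMSO, −0.67, was called in only 5 of 11 other settings.

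Growth-related lists moved less. Of 16 tested ribosome biogenesis genes 6 fell, beside 2.25% of all genes, and 0 rose, with a median of −0.23 against 0.11 in DMSO. RRS1, a ribosome assembly factor, fell by 0.50, NPM1 by 0.34, the helicase DDX21 by 0.33 and RRP9 by 0.31. Of these, RRS1 differed from DMSO, by −0.75 (SE 0.181). The chosen NPM1 row fell, but its other 2 rows read −0.09 and 0.31. SLC7A11, the cystine transporter, fell by 0.70, from 10.03 to 9.32 with PD184352 and from 10.12 to 9.44 with PLX4720, with DMSO at 10.17 and 10.23. It was 1 of 2 falls among 17 amino acid and stress genes, beside 2.25% of all genes, the other being TRIB3 at −0.33.

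The rises were shared with DMSO cells far more often than the falls. Of the 650 called rises, 594 (91.4%) were also above 0 in DMSO, where 56.2% of all tested genes were, and in 354 (54.5%) the DMSO change was at least 50% of the change with inhibitor. Of the 288 called falls, 148 (51.4%) were below 0 in DMSO, where 43.8% of all genes were, and 48 (16.7%) had a DMSO change of that relative size. The median DMSO change was 0.22 for the rises and −0.01 for the falls. Without the PD184352 2 h column 27 rises and 1 fall met the 50% mark. Over the tested genes, which share columns and are no replicates, Pearson's r of the DMSO change was 0.477 with the PD184352 change and 0.236 with the PLX4720 change, and it was 0.538 between the changes with the 2 compounds. The 3 pairs of columns share no column.

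ARRDC3, an arrestin-domain protein, was among the larger of these rises: 6.95 and 7.89 with PD184352, 7.01 and 7.89 with PLX4720, and 6.94 and 7.65 with DMSO. DDIT4, an inhibitor of mTORC1 that many stresses induce, read 8.30 and 9.36 with PD184352, 8.53 and 9.16 with PLX4720, and 8.34 and 9.17 with DMSO. The 3 treatments moved alike, and the rise of 0.84 with inhibitor differed from DMSO by 0.01 (SE 0.181). PLK2, a polo-like kinase, rose by 0.82 (DMSO 0.78), and TXNIP, which restrains glucose uptake, by 0.56 (DMSO 0.46). RALGPS2, an exchange factor for Ral GTPases, rose by 1.18 (DMSO 0.77), the gamma-secretase subunit APH1B by 1.12 (DMSO 0.65; 0.52 with inhibitor in its other row), the ubiquitin ligase MID1 by 1.11 (DMSO 0.57), the formin FHDC1 by 1.09 (DMSO 0.71) and the ceramide transporter CERT1 by 1.01 (DMSO 0.65). SYNPO, which binds actin, rose by 1.08 (DMSO 0.54) in the row used, and its other 2 rows read 0.35 and 0.10. NTN4, a netrin, rose by 0.96 (DMSO 0.60) and the zinc finger gene ZNF627 by 0.94 (DMSO 0.71). LOC100288637, an uncharacterized locus, rose by 0.99 (DMSO 0.77). None of these genes was called in the test against DMSO.

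The largest DMSO rises were in NFE2L3 (0.90), TAS2R31 (0.85), DDIT4, NCKAP5 (0.83) and ZNF616 (0.80). With inhibitor NFE2L3 and NCKAP5 rose by 0.56 and 0.75 in the rows used and read −0.10 and 0.06 in their other rows. The largest DMSO falls were in LOC100128002 (−0.83), LINC01951 (−0.81), GPS2 (−0.76), PPT2 (−0.74) and TTC24 (−0.74).

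Of 24 tested mitosis genes 5 rose, beside 5.08% of all genes, 0 fell and 19 were not called, and each of the 5 had a DMSO change of at least 50% of theirs. CCNB2, a mitotic cyclin, read 10.02 and 10.58 with PD184352, 9.96 and 10.44 with PLX4720, and 9.92 and 10.41 with DMSO. The mitotic phosphatase CDC25C rose by 0.48 (DMSO 0.41), and the kinetochore genes CENPE and CENPF rose by 0.50 (DMSO 0.48) and 0.42 (DMSO 0.37). The list's median was 0.23 with inhibitor and 0.23 with DMSO. Of 27 tested DNA replication genes limma called 0, with 1 at an unadjusted p below 0.05, and their changes ran from −0.24 in POLE to 0.15 in RPA2. No gene of either list was called lower at 6 h than at 2 h.

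A smaller group rose beyond the DMSO change. SEMA3D, a secreted semaphorin, read 5.72 and 7.24 with PD184352, 5.91 and 7.60 with PLX4720, and 5.65 and 6.40 with DMSO. Its rise of 1.60 (SE 0.105, 3.04-fold) was the largest of all and exceeded the DMSO rise by 0.85 (SE 0.181). That rise starts from a dim level: all 2 h levels lay below 6.21, the mean of LUM, a gene just above the filter. The filter used the mean over 9 columns, which for SEMA3D includes 24 h levels of 9.06 with PD184352 and 9.37 with PLX4720. SLITRK6, a membrane protein best known from neurons, read 8.05 and 9.50 with PD184352, 8.18 and 9.21 with PLX4720, and 7.82 and 8.28 with DMSO. CPM, a membrane carboxypeptidase, rose by 1.15 against 0.34 in DMSO. The differences for SLITRK6 (0.77) and CPM (0.81) were not called after quantile normalization, at adjusted p values of 0.143 and 0.0932, and that for SEMA3D was at 0.0864. With 1 of the 4 inhibitor columns left out in turn, the difference was called 2 times for SEMA3D, 1 time for CPM and 0 times for SLITRK6 and for SESN3, a gene of the next group. Of 13 tested semaphorin and adhesion genes 4 rose, beside 5.08% of all genes, and 1 fell, beside 2.25%. Besides SEMA3D and SLITRK6, SEMA3C rose by 0.96 (DMSO 0.45) and SEMA3A by 0.50 (DMSO 0.13).

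FOXO factors are active when growth signalling is low. Of 18 tested FOXO targets 8 rose, beside 5.08% of all genes, and 1, FBXO32, fell by 0.34. The list's median was 0.17, beside −0.01 in DMSO, and 2 of the 8 had a DMSO change of at least 50% of theirs. SESN3, a sestrin, read 9.35 and 10.10 with PD184352, 9.38 and 9.91 with PLX4720, and 9.37 and 9.33 with DMSO. It was level with DMSO at 2 h and above it at 6 h with both compounds, and its rise of 0.64 exceeded the DMSO change by 0.68 (SE 0.181), a difference that 6 of 11 other settings called. KLHL24, an adaptor of a ubiquitin ligase, rose by 0.75 (DMSO 0.32), and by 0.53 with inhibitor in its other row. The mitophagy kinase PINK1 rose by 0.40 (DMSO 0.02) and the cyclin CCNG2 by 0.41 (DMSO −0.10). TXNIP at 0.56 (DMSO 0.46) and ERBB3 at 0.57 (DMSO 0.19), given above, belong to this list too. Of the 18 tested FOXO targets 2 were called higher in the test against DMSO, and among those named here only SESN3 was. Of 13 tested p53 targets 6 rose, beside 5.08% of all genes, but the DMSO median, 0.22, was near the inhibitor median of 0.28, and 4 of the 6 met the 50% mark. The 6 rises included TP53INP1, an autophagy-linked protein, at 0.97 (DMSO 0.45) and the death receptor FAS at 0.52 (DMSO 0.25), neither of which met that mark. MDM2, the p53 ubiquitin ligase, rose by 0.42 (DMSO 0.35).

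In the BCL2 family 1 of 13 tested genes fell and 1 rose, where 2.25% of all genes fell and 5.08% rose. No result about the family is read from so few calls. PMAIP1, a pro-death member, read 7.75 and 7.13 with PD184352, 7.77 and 7.14 with PLX4720, and 8.44 and 8.45 with DMSO. BMF, another pro-death member, read 7.77 and 8.44 with PD184352, 7.81 and 8.11 with PLX4720, and 7.44 and 7.36 with DMSO. These genes moved apart under both compounds, by −0.62 and 0.48. Of 9 tested melanocyte genes 2 rose, beside 5.08% of all genes. They were the lineage factors MITF at 0.40 (DMSO 0.11) and SOX10 at 0.38 (DMSO 0.22). Of 10 interferon-stimulated genes 3 rose, beside 5.08% of all genes. These were IFIT1 at 0.50 (DMSO 0.01), IRF9 at 0.42 (DMSO 0.29) and IFIT2 at 0.31 (DMSO 0.17). None of the 3 was called in the test against DMSO. The median of the interferon list was −0.0008 with inhibitor and 0.03 with DMSO.

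FKBP5, a co-chaperone of steroid receptors, also went opposite ways. FKBP5 read 7.02 and 6.38 with PD184352, 7.12 and 6.71 with PLX4720, and 6.07 and 6.81 with DMSO. The DMSO 2 h level was the lowest of these 6, and it enters the difference of −1.27 (SE 0.181). By 6 h both inhibitor levels were below the DMSO level. FKBP5 was the only 1 of 9 tested glucocorticoid targets to be called, beside 7.34% of all genes.

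**Figure D4:**
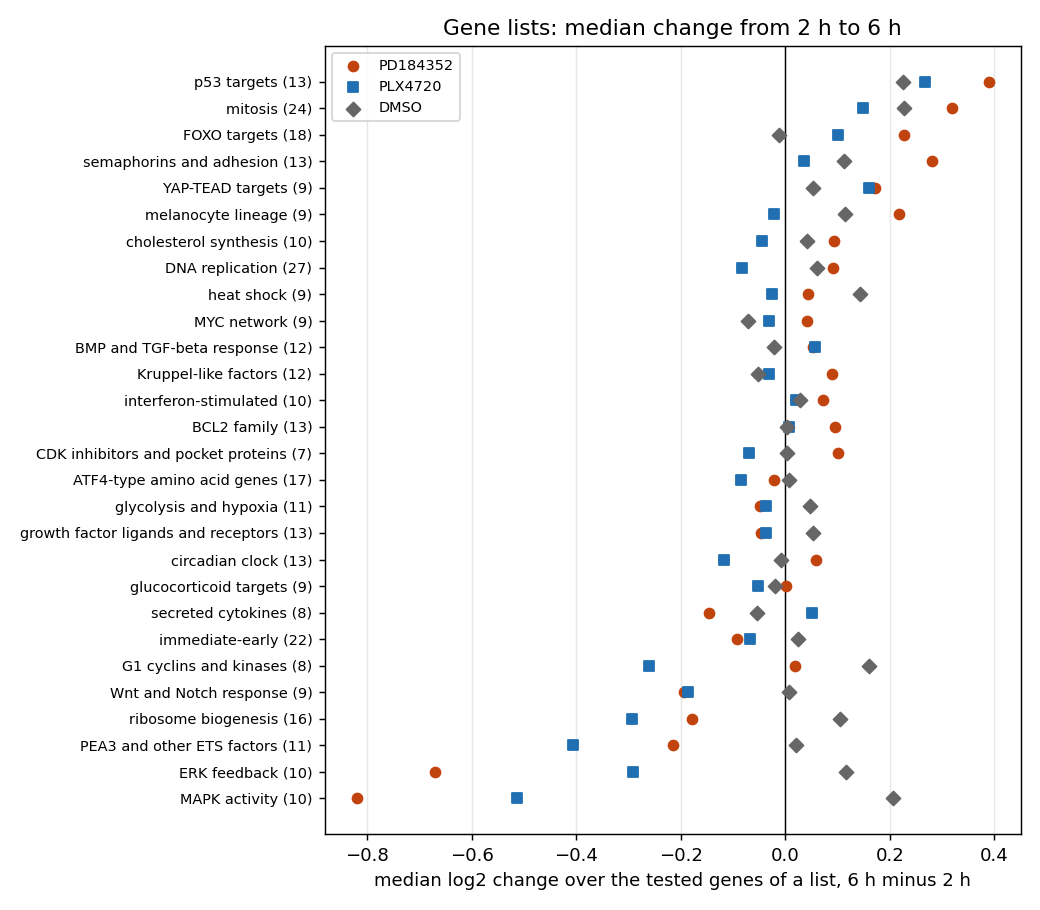
Median log2 change from 2 h to 6 h over the tested genes of each of 28 gene lists (number tested in brackets), with PD184352 (circles), PLX4720 (squares) and DMSO (diamonds). The MAPK activity, ERK feedback, ETS and ribosome biogenesis lists lie below 0 with both inhibitors and above 0 with DMSO, while the mitosis and p53 target lists lie above 0 in all 3.

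Over the lists, the lowest median was that of a 10-gene MAPK activity list, at −0.64, which shares 4 genes with the feedback list. In it 7 genes fell, beside 2.25% of all genes, and 0 rose. PD184352 and PLX4720 gave medians of −0.82 and −0.51 there, and DMSO gave 0.21. Few genes were called in the remaining lists, where 5.08% of all tested genes rose and 2.25% fell. These lists are short, so no result about a list is read from its few calls. Of 8 cytokine genes BMP2 fell by 0.33 and CSF1 rose by 0.31. Of 12 Krüppel-like factors KLF4 fell and KLF13 rose by 0.41. Of 12 BMP and TGF-beta response genes SMAD6, an inhibitor of BMP signalling, rose by 0.45, GREM1 rose by 0.38 and ID1 fell by 0.32. Of 13 clock genes NPAS2 fell by 0.38. Of 9 YAP-TEAD targets AJUBA rose by 0.69 and TEAD1 by 0.33 (DMSO 0.78). Of 9 Wnt and Notch genes NOTCH1 rose by 0.55 and RNF43, a Wnt inhibitor, fell by 0.45. Of 11 glycolysis and hypoxia genes HK2, a hexokinase, fell by 0.43 and BNIP3 rose by 0.43 (DMSO 0.39). Of 9 MYC network genes MNT, a MYC antagonist, fell by 0.33 (DMSO −0.29). limma called 0 of 10 cholesterol synthesis genes and 0 of 9 heat shock genes, with 1 and 0 at an unadjusted p below 0.05.

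The compounds were used at different doses with 1 column each, so their values are only set side by side. Of the called rises 87.7% were larger with PD184352, where 68.5% of all tested genes had the higher change with PD184352, and 31.9% of the called falls were larger with PD184352. Among called genes, MRGPRX4, a sensory-neuron type receptor, read 8.16 and 7.82 with PD184352 and 8.63 and 7.46 with PLX4720. Another gene of the family, MRGPRX3, read 8.51 and 8.24 with PD184352 and 8.75 and 7.77 with PLX4720. Both MRGPRX genes thus stood further below their 2 h level with PLX4720. For COX17, a copper chaperone, PD184352 read 8.59 and 9.47 and PLX4720 9.01 and 9.12. The rise of PPM1K, a mitochondrial phosphatase, was likewise larger with PD184352, and the fall of LOC390705 was larger with PLX4720. These 3 genes have another row each, with mean changes of 0.11 for COX17, 0.12 for PPM1K and 0.19 for LOC390705, against 0.50, 0.65 and −0.48 in the rows used. In the other direction, MRPL20, KRTAP1-4, MCEE, TTC24 and LINC00965 had changes of opposite sign with the 2 compounds, and their mean changes turned sign when 1 column was left out. The other rows of MCEE and LINC00965 read 0.04 and 0.11.

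Promoter sequences of the genes that moved together were searched for 5 short motifs in the 250 bases before the RefSeq start, on both strands. The motifs were AP-1 (TGACTCA), ETS (CCGGAAG), CRE (TGACGTCA), E-box (CACGTG) and forkhead (GTAAACA), and none of them contains another. A RefSeq promoter was found for 519 of the 650 rises, 216 of the 288 falls and 10190 tested genes. The ETS letters were in 10.7% of the promoters of falls, 15.2% of those of rises and 16.2% of those of all tested genes (8.52% of all 35116 promoters of the table). The AP-1 letters were in 4.17%, 6.17% and 4.33% (4.20% of all), and the forkhead letters in 4.63%, 4.05% and 2.84% (2.98% of all). The E-box letters were in 13.4%, 9.25% and 10.98% (6.34% of all), and the CRE letters in 1.39%, 3.08% and 3.23% (1.65% of all). These shares are descriptions, with no test, and a match is not a binding site. The promoters of 3 genes with a match are shown, 1 of a gene that fell (SLC20A1, chr2:112645689-112645938, plus strand, E-box), 1 of a gene that rose beyond DMSO (SLITRK6, chr13:85799420-85799669, minus strand, AP-1) and 1 of a gene that rose in all treatments (ARRDC3, chr5:91380098-91380347, minus strand, forkhead). Each is written 5′ to 3′ from GRCh38.p14, with the match in capitals; those of SLITRK6 and ARRDC3 are the motif letters of the opposite strand.
SLC20A1: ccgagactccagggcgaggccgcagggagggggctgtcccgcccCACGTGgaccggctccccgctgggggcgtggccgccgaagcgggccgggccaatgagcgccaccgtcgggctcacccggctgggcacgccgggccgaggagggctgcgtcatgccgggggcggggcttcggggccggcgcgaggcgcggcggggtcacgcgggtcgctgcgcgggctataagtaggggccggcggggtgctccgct
SLITRK6: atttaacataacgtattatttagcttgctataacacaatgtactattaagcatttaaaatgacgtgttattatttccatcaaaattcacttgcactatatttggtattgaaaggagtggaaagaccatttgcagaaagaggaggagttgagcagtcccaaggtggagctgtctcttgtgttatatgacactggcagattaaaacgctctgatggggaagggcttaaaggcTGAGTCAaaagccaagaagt
ARRDC3: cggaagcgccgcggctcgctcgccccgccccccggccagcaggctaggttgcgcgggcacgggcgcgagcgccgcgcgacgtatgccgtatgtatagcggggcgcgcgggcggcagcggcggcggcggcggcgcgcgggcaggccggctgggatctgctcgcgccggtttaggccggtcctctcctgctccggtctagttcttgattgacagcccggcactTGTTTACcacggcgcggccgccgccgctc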

How the data were processed

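Per the labels' protocols, RNA of A375P cells was extracted on columns with DNase treatment and labelled with biotin for the array. The authors deposited intensities on a linear scale, 1 column per treatment and time. RMA, limma and R 2.8.0 are named in the submitters' processing notes, with no role or order. No source used here gives the genome build of the array rows. The deposited intensities were put on a scale of log2(value + 1), with no further normalization, and this scale understates changes of dim genes. Rows were named through the platform's symbol table, and 19325 of the 19380 rows with 1 symbol matched a RefSeq gene of GRCh38.p14 by identifier, with 0 symbols changed. Several rows stood for 1794 genes, which took their brightest row by mean level over 9 columns, and the lowest 25% of genes were left out. No pair of columns held identical values (0 pairs).

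Changes were fitted with limma 3.58.1 in R 4.3.3 on 4 columns with compound as a block. The difference from DMSO was fitted on 6 columns as an interaction of time with inhibitor. Both used Benjamini-Hochberg adjustment over all 12785 genes, with 0.05 as the threshold for a call. Each fit has 1 residual degree of freedom and an infinite prior, so p-values come from a spread common to all genes. They measure only how the columns of the 2 compounds differ, which may be technical. Both fits were tested on simulated data. The number of arrays limits the precision.

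The members, gene lists and tests were chosen with earlier results of these data known. Genes named are the 15 largest falls and rises called with 1 sign for both compounds, every ERK feedback gene, the largest changes (at most 4) of every further list, the 5 called genes each way that differ most between compounds, and the 5 largest DMSO differences each way. ETS2, ETV6, ATF3, EGR1, FBXO32, PINK1, CCNG2 and MDM2, all list members, were named after their values were seen. The alternatives were other filters, pseudocounts, normalizations, row rules, sets of columns and variance models, and leaving out each inhibitor column in a fit that adds the 24 h columns. The last of these for the difference from DMSO was chosen after seeing the data.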

Additional observations from a re-analysis of the deposited data

Results flagged for a closer look

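The change from 2 h to 6 h with inhibitor differed from that in DMSO cells for 31 of the 148 named genes by limma's interaction test, 26 lower and 5 higher. Over all tested genes it was 103 of 12785 (0.806%). Named genes were chosen largely by the size of their changes in these same columns. A higher share among them is therefore built in and is no result. The values are differences of log2 changes, inhibitor minus DMSO, each with an SE of 0.181. The lowest were SPRY4 (−2.19), TGFA (−1.79), ERRFI1 (−1.57), SLC20A1 (−1.40), EPHA4 (−1.34), FKBP5 (−1.27) and CCND1 (−1.22). SPRED1 (−1.09), ETV5 (−1.05), HTR7 (−1.05), ETV1 (−0.99), CDC42EP3 (−0.94), CEMIP (−0.94), TAS2R31 (−0.93), FOSL1 (−0.89) and INPP5F (−0.84) came next. Smaller differences were read for SPRY2 (−0.81), MRGPRX4 (−0.79), SLC7A11 (−0.76), DUSP6 (−0.76), SPRED2 (−0.76), RRS1 (−0.75), TNFRSF21 (−0.70), MAFF (−0.68), PLAT (−0.67) and ELK3 (−0.65). The higher differences were PPT2 (1.10), SEMA3D (0.85), CPM (0.81), SLITRK6 (0.77) and SESN3 (0.68). For TAS2R31, a taste receptor gene, the inhibitor change was −0.08 and the DMSO change 0.85. PPT2, a lysosomal thioesterase, changed by 0.36 with inhibitor and −0.74 with DMSO. In 21 of the 31, at least 1 other setting with all columns kept gave no call.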

How the results depend on the processing

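The 938 calls stayed within 1.5 times of that number under all 13 settings that kept every inhibitor column of 2 h and 6 h (664 to 1246). With columns left out, the lowest and highest counts were 93 and 912 in all, 44 and 714 higher, and 49 and 255 lower. After quantile normalization 403 rises were called, 247 calls and 211 rises met the 50% mark of DMSO drift. With columns left out these drift counts ran from 28 to 348, from 27 to 306 for rises and from 1 to 42 for falls. For the difference from DMSO, quantile normalization gave 17 genes (2 higher, 15 lower) and all 9 columns 31 (3 higher, 28 lower), while the 29 higher genes became 47 with no filter and 16 with robust eBayes. With columns left out the counts ran from 5 to 108, from 0 to 20 for higher and from 5 to 88 for lower genes. The 0 came without PD184352 2 h, where limma gave 232 higher genes an unadjusted p below 0.05. With columns left out the change turned sign for DUSP6 (−1.19 to 0.0230), KRTAP1-4 (−0.80 to 0.17), MCEE (−0.93 to 0.0824), TTC24 (−0.77 to 0.0522) and LINC00965 (−0.67 to 0.0503) without 1 of the PD184352 columns, and for MRPL20 (−0.31 to 1.07) without either PLX4720 column. These fits take the offset between the compounds in part from the 24 h columns, so a turned sign need not be seen in the pair left intact. DUSP6 fell by 0.23 in the PLX4720 pair. The cause of the turned signs was not tested. Of the 98 named genes called, 74 were called under all settings with every column kept, and 33 also whichever column was left out. The labels carry no replicate numbers, and the columns were paired by compound; without that compound block 1246 genes were called.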
